A study of Mus musculus with 4 samples.

Results

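The genes described here are 34 listed genes of the neural crest, the neural tube and autonomic neurons, read in embryonic mouse hearts with and without a cardiac deletion of Hdac3. They were matched to the array by gene name, and where a gene had several probes the one with the highest mean processed signal over both channels represented it. Of the 34 genes, 33 had a probe, and Crabp1l had none of that name. A gene was kept for comparison when the scanner software judged its probe well above background in all 4 mutant channels or in all 4 control channels. This left 22 of the 34 genes, against 19608 of all 30199 genes named on the array. The genes were chosen by their names and roles, with the deposited log2 ratio of Phox2a, noted for its fall, already in view, so that gene is described without a test.

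Neural crest cells leave the dorsal neural tube and migrate, and some enter the heart through the pharyngeal arches, where they contribute to the outflow tract and later to the cardiac nerves. Sox10, Foxd3, Pax3 and the Tfap2 factors act in their specification, Ednrb and Erbb3 are receptors that migrating crest cells use, and Phox2a acts in the autonomic neuron programme that includes the noradrenaline enzymes Th and Dbh. Neural tube progenitors are marked by Sox1, Sox3, Pax6, Olig2 and the Nkx factors, and their neuronal progeny pass through Neurog and Neurod1 to Elavl3, Tubb3, Dcx and Stmn2. Hdac3 is a histone deacetylase that works within nuclear corepressor complexes.

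The mutants were Nkx2.5Cre; Hdac3f/f embryos and the controls were Hdac3f/f littermates, both on a mixed CD1/B6/129 background and at embryonic day 9.5. They came from a cross of Nkx2.5Cre; Hdac3f/+ with Hdac3f/f mice, and the labels do not say which cells had recombined. Both groups carried the floxed allele, and the mutants alone are named as carrying Cre, so effects of Cre itself and of the deletion cannot be told apart. Hearts were microdissected and 3 were pooled for each channel, which gave 4 mutant and 4 control pools on 4 two-colour arrays, with 1 pool of each group per array. The labels call the arrays biological replicates, and the descriptions of replicates 2 to 4 speak of embryonic stem cells where all other fields give hearts. In pooled hearts, fewer cells of a type and less RNA per cell cannot be told apart.

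The direction of the ratios was not settled by the sources. Per the labels, Cy5 was the dye of the mutant RNA throughout, whereas the deposited mutant over wild-type columns had correlations with the scanner's log2 Cy5 over Cy3 of 0.932, 0.940, -0.992 and -0.951 on bright probes, arrays 1 to 4 in turn. The deposited columns thus read Cy5 as mutant on arrays 1 and 2 and Cy3 as mutant on arrays 3 and 4. Read this way, array 4 correlated with array 1 at -0.419 and with array 2 at -0.266 over all probes. Array 3 correlated with arrays 1 and 2 at only -0.047 and -0.073. Within an orientation, the correlation was 0.565 between arrays 1 and 2 and 0.450 between arrays 3 and 4. After loess, arrays 1 and 4 correlated at -0.286. Ratios below follow the deposited columns, and the mean with all arrays read as labelled, Cy5 over Cy3, is given beside the mean of each gene. Array 3 stood apart, with an SD of 0.429 in log2 ratio over all genes against 0.213 to 0.256 on the others. Hdac3 had log2 ratios of -0.220, -0.498, -0.522 and -1.149, with a mean of -0.60 ± 0.39 (SD, n = 4) that became 0.24 as labelled; limma gave it an adjusted p of 0.585. Hdac3, the targeted gene, thus read lower in the mutant channel of all 4 arrays as deposited. As labelled, it would read higher in the mutant on arrays 3 and 4. A deletion would lower its RNA, so this gene goes with the deposited reading. It is 1 gene, and arrays 1 and 4 correlated negatively under that reading, so the direction stays unsettled. Whether its probe lies in the deleted part was not tested. All 16 heart muscle markers, among them Tnnt2, passed the filter.

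Each probe is a designed sequence of 60 bases. The first 30 bases are shown for 9 genes on which the results turn: Phox2a, whose ratio was below 0 on all 4 arrays; Ngfr, Nkx6-1 and Nes, which had 1 sign on all arrays and an unadjusted p under 0.05; Dlx2, the other gene below 0 on all arrays; Sox10 and Elavl4, whose sign followed the dye orientation; Neurog2, well above background in Cy5 on all arrays and in Cy3 on none; and Sox1, read by 1 of the probes of highest GC content. The sequences are those of the scanner files, written 5′ to 3′ with no part marked. Positions are those of the files on mm9, and transcript features at these positions were not analysed here.
Phox2a: gtcggggaacggaacaaaatggttttcctt
Ngfr: tccagctggcgactatgagatccagacctc
Dlx2: gatttgaatttgtttttatcttgtcctaaa
Nkx6-1: cagtatcctggctgctcgccgggcctttac
Nes: tcatcatctcagcctgctgagatcttgttt
Sox10: tacagtctacctttgccttgcaccctttgc
Elavl4: gggaagaagcatattactgtgtccttctgt
Neurog2: tgcaactggtccctgtgatcttttcacctt
Sox1: cgtcaacggcacggtgcccctgacgcacat
The Phox2a probe lies at chr7:108971127-108971186 on the plus strand, and its 60 bases hold 35% G and C. The Ngfr probe is at chr11:95430211-95430270 on the minus strand and was spotted 10 times per array. The Dlx2 probe is at chr2:71381553-71381612 and the Nkx6-1 probe at chr5:102088319-102088378, both on the minus strand. The Nes probe is at chr3:87784303-87784362 and the Neurog2 probe at chr3:127337805-127337864, both on the plus strand. The Sox10 probe is at chr15:78985518-78985577 and the Elavl4 probe at chr4:109877455-109877514, both on the minus strand, and the Sox1 probe is at chr8:12397503-12397562 on the plus strand. The Sox1 probe holds 73.3% G and C, against a median of 40.8% for the 22 probes kept and 41.7% over all genes kept.

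Of all genes on the array, 64.9% were kept. All 7 genes of neuronal differentiation (Elavl3, Elavl4, Tubb3, Dcx, Stmn2, Ncam1 and Isl2) were kept, as were 5 of 7 neural tube progenitor factors, 3 of 6 crest transcription factors, 2 of 3 crest receptors with a probe, 3 of 4 autonomic genes and 2 of 3 Dlx genes. None of the 3 neurogenic bHLH genes was kept. Foxd3, Erbb3, Ret and Neurod1 were not well above background in any of the 8 channels. Tfap2b, Pax6 and Olig2 each cleared background in 1 mutant and 1 control channel, and Dlx1 in 1 mutant channel. Pax7 did so in 2 mutant channels and 1 control channel. Neurog1 lay just outside the filter, with 3 mutant and 2 control channels. Dlx2, with 3 mutant and 4 control channels, and Dcx, with 4 and 3, lay just inside it.

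**Figure D1:**
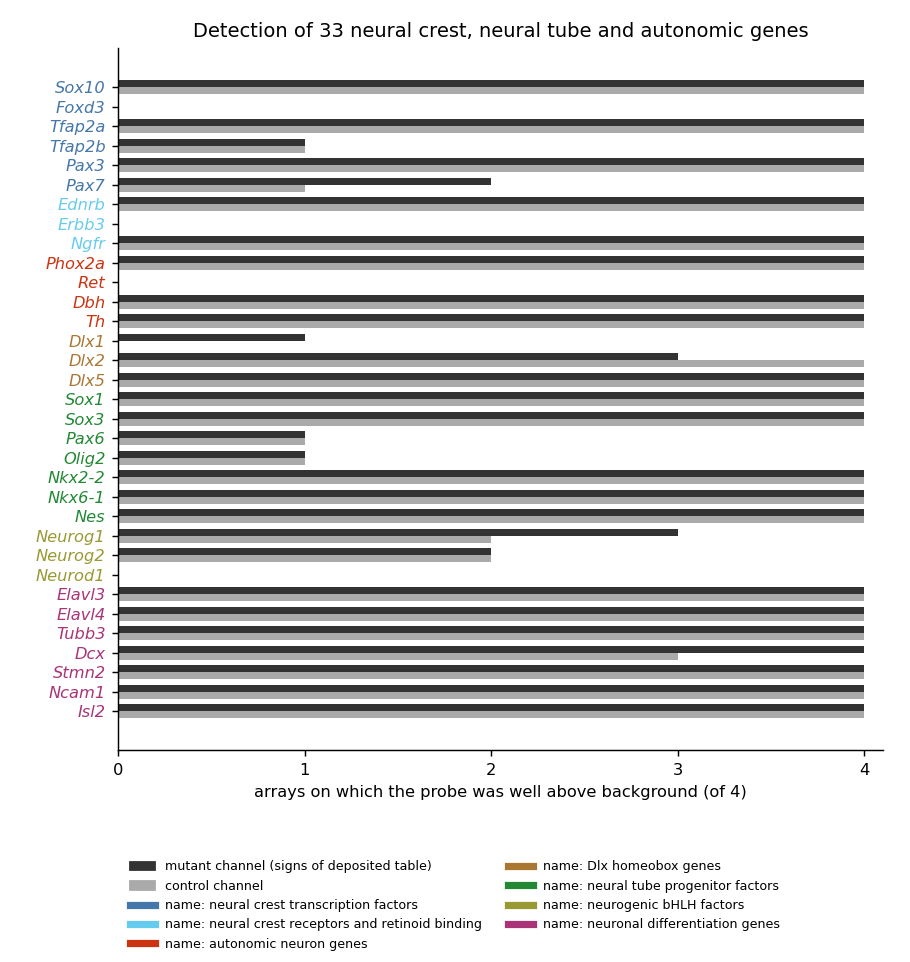
Number of arrays, of 4, on which the probe of each of 33 genes was well above background, shown by bars for the mutant and the control channel (channels assigned as in the deposited columns). Foxd3, Erbb3, Ret and Neurod1 have no bar, and 20 genes reach 4 in both channels.

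Over the genes kept, no change passed the test. The adjusted p of the 21 genes tested ran from 0.585 to 0.990 (limma), and 0 of all 19608 genes, 0%, were called at an adjusted p under 0.05, the lowest being 0.254. The mean log2 ratio was above 0 for 13 of the 22 genes and below 0 for 9, beside 46.5% below 0 among all genes. The median over the 22 was 0.076, or 0.093 without Phox2a, against 0.011 over all genes, and loess values put the median of the 22 at 0.0014. Ngfr, Pax3, Nkx2-2, Nkx6-1, Nes and Dcx had ratios above 0 on all 4 arrays, which is 6 of 22 beside 10.0% of all genes. Phox2a and Dlx2 were below 0 on all 4, which is 2 of 22 beside 9.73% of all genes. Without Phox2a, an unadjusted p under 0.05 (limma) was reached by 3 genes with higher ratios (Ngfr, Nkx6-1 and Nes; 3.88% of all genes) and by Dlx2 alone among lower ones (4.58% of all genes). Dlx2 was kept only through its control channels and Dcx only through its mutant channels, in each case the channels that read higher, so their signs and p are no support. An adjusted p above the threshold does not show that levels were equal: the SD between arrays had a median of 0.26 over the 21 genes.

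**Figure D2:**
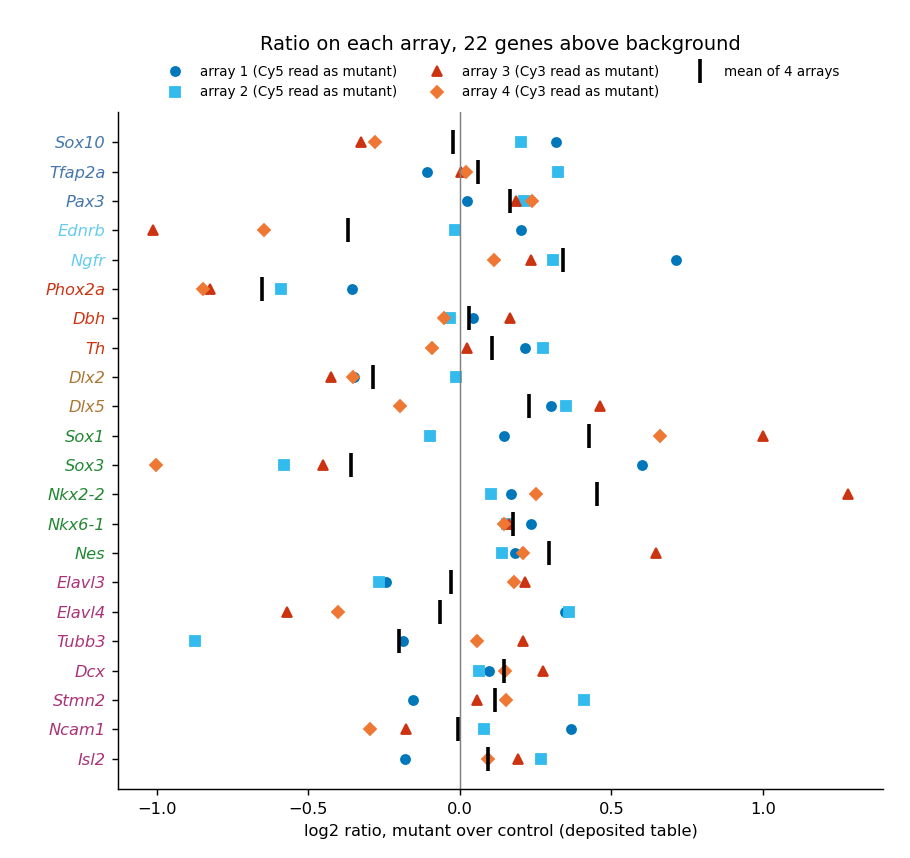
Deposited log2 ratio of mutant over control on each array for the 22 genes kept, with symbols for the 4 arrays and a bar for their mean. Phox2a lies left of 0 on all 4 arrays, Nkx6-1 has the narrowest spread among genes with 1 sign (0.146 to 0.234), and Sox10, Elavl3, Elavl4, Tubb3 and Ncam1 divide by dye orientation.

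Among the autonomic genes, Phox2a read lower in the mutant channel of every array under the deposited reading. Of the noradrenaline enzymes, Dbh had a mean log2 ratio of 0.03 and Th one of 0.11. Phox2a, a homeobox factor required for noradrenergic neurons, had processed signals of 197, 183, 193 and 191 in the mutant channels and 260, 284, 362 and 363 in the control channels. The mutant values differed little among themselves. Control values were lower on arrays 1 and 2, where Cy3 is read as control, than on arrays 3 and 4, where Cy5 is. Read as labelled, the signals of both groups would overlap. Its deposited log2 ratios were -0.355, -0.589, -0.823 and -0.846, a mean of -0.65 ± 0.23 (SD, n = 4), with arrays 3 and 4 lower than 1 and 2. Leaving out 1 array at a time gave means from -0.75 to -0.59, and the loess values from the scanner intensities gave -0.55. Read as labelled, the mean was 0.18, since arrays 3 and 4 then change sign. These values chose the gene and support nothing further.

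Dbh, which makes noradrenaline from dopamine, had ratios of 0.044, -0.031, 0.165 and -0.054. They lay on both sides of 0, with a mean of 0.03 ± 0.10 and an adjusted p of 0.911 (limma); as labelled the mean was -0.02. Th, the rate-limiting enzyme of catecholamine synthesis, had ratios of 0.214, 0.274, 0.024 and -0.091. Arrays 1 and 2 were the high ones, and the mean was 0.11 ± 0.17 with an adjusted p of 0.718 (limma) and 0.14 as labelled. Ret, the receptor of the GDNF family that enteric and sympathetic precursors use, was among the 4 genes not well above background in any channel.

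The crest transcription factors showed no common direction. Sox10, kept by migrating crest and its glial derivatives, had ratios of 0.317, 0.201, -0.325 and -0.280. The first pair of arrays was above 0 and the second below it by a like amount, so that the mean was -0.02 ± 0.33 with an adjusted p of 0.970 (limma). Read as labelled, Sox10 was above 0 on all 4 arrays with a mean of 0.28 and an adjusted p of 0.117 (limma). Pax3, expressed in dorsal neural tube and early crest, had ratios of 0.022, 0.212, 0.184 and 0.237. All 4 were above 0 and array 1 was close to it, with a mean of 0.16 ± 0.10 and an adjusted p of 0.603 (limma). Its mean was 0.003 after loess and -0.05 as labelled. Signals were dim, from 16.1 to 27.5 in the mutant and 14.0 to 18.6 in the control channels. A second Pax3 probe was not well above background in any channel. Tfap2a, an early crest and surface ectoderm factor, had ratios of -0.108, 0.325, 0.004 and 0.019. Array 2 alone departed clearly from 0, and the mean was 0.06 ± 0.19, with 0.05 as labelled.

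The crest receptors went different ways. Ngfr, the low-affinity neurotrophin receptor p75 used to mark crest cells, had ratios of 0.714, 0.306, 0.233 and 0.113. All were above 0, array 1 being the highest and array 4 the lowest, with a mean of 0.34 ± 0.26. The unadjusted p was 0.0213 and the adjusted p 0.585 (limma), with a mean of 0.17 as labelled and 0.22 without array 1. Its 10 spots per array gave within-array SDs of 0.080, 0.051, 0.074 and 0.045, smaller than the spread between arrays. Its mutant signals were 126, 89.5, 112 and 114 and its control signals 68.6, 69.0, 89.6 and 104, which overlapped.

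Ednrb, the endothelin receptor of migrating crest and also of endothelium, had ratios of 0.202, -0.017, -1.012 and -0.647. Arrays 3 and 4 were low, array 2 was near 0 and array 1 above it, with a mean of -0.37 ± 0.56 and an adjusted p of 0.625 (limma). The second Ednrb probe gave -0.109, -0.427, -0.807 and -0.057, below 0 on all arrays with a mean of -0.35. Read as labelled, the main probe had a mean of 0.46 and the second one of 0.08. Erbb3, the neuregulin receptor of crest and Schwann cell precursors, was not well above background in any channel.

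Both Dlx genes kept differed in sign. Dlx2, a homeobox factor of pharyngeal arch crest, had ratios of -0.348, -0.014, -0.424 and -0.354. Array 2 was near 0 and the other arrays were low, with a mean of -0.29 ± 0.18, an unadjusted p of 0.0203 and an adjusted p of 0.585 (limma). Its signals were dim, from 5.23 to 19.3 in the mutant and 11.9 to 30.3 in the control channels, and its mean was -0.11 after loess and 0.10 as labelled. Dlx5, which acts in the lower jaw arch, had ratios of 0.302, 0.349, 0.462 and -0.198. Array 4 was opposite to the other arrays, and the mean was 0.23 ± 0.29 with an adjusted p of 0.617 (limma). The mean was 0.02 after loess, 0.37 without array 4 and 0.10 as labelled.

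Of the 5 neural tube progenitor genes kept, 4 had a mean above 0, and their median was 0.294 as deposited and -0.133 as labelled. Nes, an intermediate filament of neural progenitors that other dividing embryonic cells also contain, had ratios of 0.182, 0.139, 0.646 and 0.208. Array 3 stood above the rest, and the mean was 0.29 ± 0.24 with an unadjusted p of 0.0304 and an adjusted p of 0.585 (limma). Without array 3 the mean was 0.18, and as labelled it was -0.13. Nes was bright, with mutant signals of 3148 to 6378 and control signals of 2803 to 4322.

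Nkx6-1, a ventral progenitor factor, had ratios of 0.234, 0.157, 0.163 and 0.146. The 4 arrays lay close together above 0, with a mean of 0.18 ± 0.04, an unadjusted p of 0.0426 and an adjusted p of 0.585 (limma). The mean was 0.18 after loess and 0.02 as labelled. Signals were dim, from 21.6 to 34.7 in the mutant and 18.1 to 27.8 in the control channels. Processed signals gave log2 ratios of 0.358, 0.258, 0.323 and 0.272, farther from 0 than the deposited ones. Nkx2-2, which marks the floor plate side of the ventral tube and also foregut endoderm derivatives, had ratios of 0.170, 0.103, 1.280 and 0.251. Array 3 carried most of its mean of 0.45 ± 0.56 (adjusted p = 0.598, limma), which was 0.17 without that array and -0.31 as labelled. A dimmer Nkx2-2 probe, above background in 3 of 8 channels, gave 0.906, 0.944, -0.718 and -0.843.

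Sox1, the earliest marker of neural plate fate, had ratios of 0.146, -0.098, 1.00 and 0.660. Arrays 3 and 4 were high, and the mean was 0.43 ± 0.50 with an adjusted p of 0.586 (limma) and -0.40 as labelled. A second Sox1 probe did not show this, with ratios of 0.152, 0.185, 0.236 and -0.157 and a mean of 0.10, or 0.06 as labelled. Across all genes kept, ratios on array 3 correlated with probe GC content at 0.186 and those on array 4 at 0.113, against 0.019 and -0.008 on arrays 1 and 2, and the part of GC content in the Sox1 ratio was not tested. Sox3, a progenitor factor also found in pharyngeal epithelium, had ratios of 0.602, -0.579, -0.453 and -1.003. Array 1 was opposite to the other 3, and the mean was -0.36 ± 0.68 with an adjusted p of 0.668 (limma) and 0.37 as labelled.

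The neurogenic bHLH factors, which commit progenitors to a neuronal fate, were near the limit of detection. Neurog2 was well above background in the Cy5 channel of all 4 arrays and in Cy3 on none, which fell to 2 mutant and 2 control channels under the deposited reading. Its deposited ratios were 0.815, 1.003, -0.675 and -0.814, above 0 on arrays 1 and 2 and below 0 on arrays 3 and 4, with a mean of 0.08 ± 0.96. Read as labelled, its mean was 0.83 with an adjusted p of 0.0114 (limma), and Neurog2 was then the 1 listed gene called of 23 measured, beside 347 of all 19825 genes, 1.75%. It entered that test only through Cy5, the channel in which it is high, so the filter favours the call and it supports nothing. On scanner intensities after normexp and loess, Cy5 was 1.25-fold over Cy3, with log2 means of 6.90 and 6.57. A detection limit for Cy3 left its mean unchanged, so 1.25-fold is no lower bound. Processed signals gave deposited-reading log2 ratios of 2.79, 3.31, -2.67 and -2.47, farther from 0. With Cy3 not well above background, the size of the difference was not settled. As labelled, the dye always matches the genotype, so these ratios are open to dye bias. Pax7 behaved alike, with background cleared in Cy5 on 3 arrays and in Cy3 on none. Neurog1 had ratios of 0.269, 0.183, 0.081 and 0.096, all above 0, and was not tested.

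The neuronal differentiation genes had a median of -0.01, with 3 means above 0 and 4 below. Tubb3, the neuronal beta-tubulin, had ratios of -0.189, -0.874, 0.207 and 0.056. Array 2 was low and arrays 3 and 4 were above 0, with a mean of -0.20 ± 0.48, an adjusted p of 0.730 (limma) and -0.33 as labelled. Elavl3, an RNA-binding protein of new neurons, had ratios of -0.243, -0.267, 0.214 and 0.180. The sign divided exactly by dye orientation, with a mean of -0.03 ± 0.26 and -0.23 as labelled. Elavl4, its paralogue, divided the other way at 0.348, 0.360, -0.570 and -0.403, with a mean of -0.07 ± 0.49 and 0.42 as labelled. A second Elavl4 probe opposed the first, at -0.138, 0.056, 0.407 and 0.525, with a mean of 0.21 and -0.25 as labelled.

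Dcx, a microtubule protein of migrating neurons, had ratios of 0.095, 0.064, 0.274 and 0.148. All were above 0, with a mean of 0.15 ± 0.09 and an adjusted p of 0.615 (limma), but the mean was -0.05 after loess and -0.07 as labelled. Further Dcx probes were not well above background in any channel. Stmn2, a growth cone protein, had ratios of -0.155, 0.408, 0.055 and 0.152, with array 1 opposite to the others and a mean of 0.12 ± 0.23 (0.01 as labelled). Ncam1, an adhesion molecule that heart muscle also carries, had ratios of 0.367, 0.078, -0.177 and -0.298 and a mean of -0.01 ± 0.30. Arrays 1 and 2 were again opposite to arrays 3 and 4, and the labelled mean was 0.23. Isl2, a motor neuron factor, had ratios of -0.180, 0.267, 0.191 and 0.093, with array 1 alone below 0 and a mean of 0.09 ± 0.20. Its mean was 0.18 after loess and -0.05 as labelled.

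The arrays of each dye orientation were therefore set side by side. The mean of arrays 1 and 2 and the mean of arrays 3 and 4 had opposite signs in 8 of the 22 genes, 36.4%, against 52.5% of all genes kept. Sox10, Elavl3, Elavl4, Tubb3 and Ncam1 were divided on every array, which is 5 of 22, 22.7%, against 26.9% of all genes. These counts rest on 1 probe per gene, and second probes of Elavl4 and Ncam1 did not divide this way. As labelled, Sox10, Elavl4 and Ncam1 were above 0 on all 4 arrays, 3 of 22 beside 13.2% of all genes, and Elavl3 and Tubb3 below 0 on all 4, 2 of 22 beside 13.7%. The mean was farther from 0 as labelled in 8 of the 22 genes, 36.4%, against 52.4% of all genes. Over all genes kept, the paired means correlated at -0.08, a description across genes that share the arrays.

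**Figure D3:**
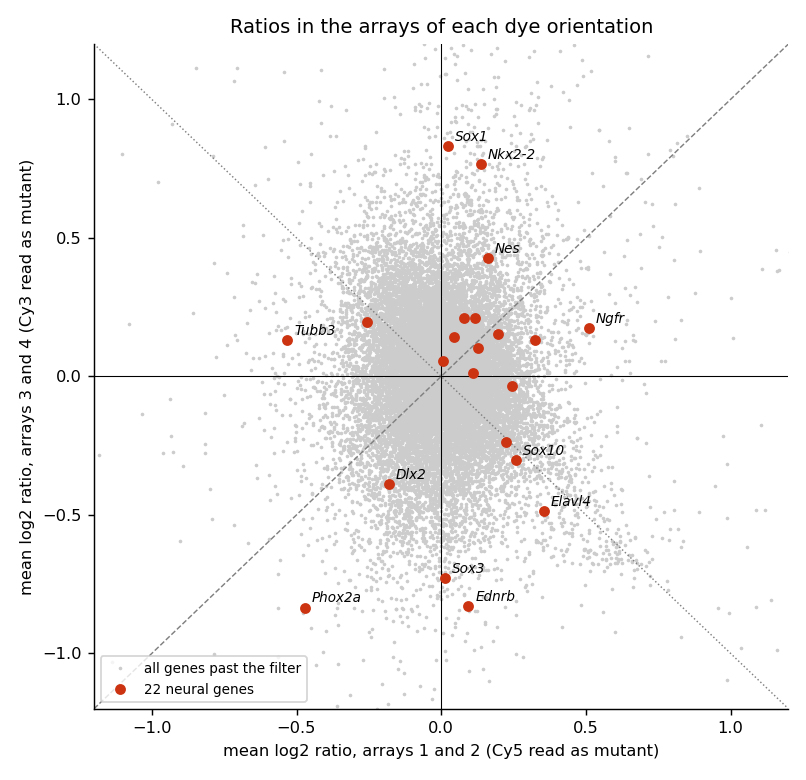
Mean deposited log2 ratio on arrays 1 and 2 (Cy5 read as mutant) against that on arrays 3 and 4 (Cy3 read as mutant), with 22 listed genes in red over all genes kept in grey; 95 genes lie outside the axes. Phox2a lies in the quadrant below 0 on both axes, and 8 of the 22 lie in the quadrants of opposite sign.

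Other genes of the same programmes were read from lists of related genes. Their counts by sign stand beside 46.5% with a mean below 0 among all genes kept. Of 18 autonomic and enteric neuron genes, 10 were kept, 7 with a mean above 0 and 3 below, with a median of 0.01 and -0.032 as labelled. Chrna3, a nicotinic receptor subunit, and Gdnf and Gfra1, a ligand and its co-receptor, were among those not well above background in any channel. Gfra2, a co-receptor for neurturin, had ratios of 0.047, 0.267, 0.485 and 0.285, all above 0, with a mean of 0.27 ± 0.18 and -0.11 as labelled. Of the 10, 0 were below 0 and 2 above 0 on all 4 arrays, beside 9.73% and 10.0% of all genes.

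Of 29 genes of the crest and of Schwann cell precursors, 24 were kept, 18 with a mean above 0 and 6 below, with a median of 0.07 and 0.0074 as labelled. Ednra, the endothelin receptor of arch crest, had ratios of 0.106, 0.233, 0.270 and 0.165 with a mean of 0.19 ± 0.07 and -0.02 as labelled. Twist1, a factor of mesenchymal crest, had a mean of 0.28 ± 0.36 that rested largely on a ratio of 0.788 on array 3, and -0.12 as labelled. Dlx3 had a mean of 0.17 ± 0.08 (0.06 as labelled) and Snai2, which acts when crest cells leave the epithelium, one of -0.16 ± 0.10 (-0.01 as labelled), each with 1 sign on all arrays. Edn3 and Sox8 were not well above background in any channel. By unadjusted p under 0.05 (limma), Ednra alone of the 24 was higher and 0 were lower, beside 3.88% and 4.58% of all genes.

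Of 40 neural tube and neuronal genes, 26 were kept, 17 with a mean above 0 and 9 below, with a median of 0.03 and 0.08 as labelled. At an unadjusted p under 0.05 (limma), 1 was higher and 4 were lower, beside 3.88% and 4.58% of all genes. Of the 4, Map2 and Nefm were kept only through their control channels, with 3 and 2 mutant channels above background, so the filter favours their lower ratios. Nefl, the light neurofilament subunit, had ratios of -0.222, -0.363, -0.390 and -0.513, all below 0, with a mean of -0.37 ± 0.12 and an adjusted p of 0.585 (limma). Map2, a dendritic microtubule protein, had a mean of -0.26 ± 0.13 and Nefm, the medium neurofilament subunit, one of -0.19 ± 0.05, both below 0 on all arrays. As labelled the means were 0.08 for Nefl, 0.10 for Map2 and -0.01 for Nefm. Elavl2, named after its value was seen, was the fourth lower gene with a mean of -0.29 ± 0.27 (0.18 as labelled). Lhx3, a motor neuron factor, was the higher gene, at 0.222, 0.510, 0.145 and 0.330 with a mean of 0.30 ± 0.16 (0.06 as labelled). Adjusted p was 0.585 for all 5 (limma).

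Markers of other cells that a microdissected heart can hold had the following ratios. The 10 pharyngeal mesoderm and second heart field genes kept, 6 with a mean above 0 and 4 below, had a median of 0.15 (0.08 as labelled), with medians of 0.07, 0.45, 0.06 and 0.16 on arrays 1 to 4. The summed signal of that list was 11164 to 15515 in mutant and 7406 to 21522 in control channels. Msc was not well above background in any channel. Lhx2 had a mean of 0.61 ± 0.21, Fst one of 0.76 ± 0.39 and Tbx1 one of 0.83 ± 0.50, all with an adjusted p of at least 0.577 (limma). As labelled these means were 0.14, -0.29 and -0.01. Tcf21, also an epicardial marker, was below 0 on all 4 arrays, with a mean of -0.42 ± 0.29, an unadjusted p of 0.0112 (limma) and 0.02 as labelled. The summed signal of the foregut endoderm list was 17200 to 38782 in mutant and 17556 to 29156 in control channels. The 5 foregut endoderm genes kept all had a deposited mean above 0, with a median of 0.19 (-0.07 as labelled). Their medians by array were -0.04, 0.16, 0.35 and 0.23. Among them Foxa2 had a mean of 0.23 ± 0.14, Krt18 one of 0.28 ± 0.33 and Cldn7 one of 0.19 ± 0.17. As labelled these were 0.07, -0.27 and -0.14, and Foxa2 was kept only through its mutant channels. Foxa1, Nkx2-1 and Shh were not well above background in any channel. The part of these tissues in the ratios of Nkx2-2, Sox3, Dlx5 and the other arch genes was not tested.

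Of the 8 somite markers 3 were kept, and Meox2, Myf5, Myog and Pax1 were not well above background in any channel. Their median ratio was -0.25 on arrays 1 and 2, 0.12 on array 3 and 0.50 on array 4 (-0.31 for the means as labelled), and their summed signal 186 to 272 in mutant and 202 to 240 in control channels. Heart muscle markers had medians of 0.10, 0.21, -0.14 and -0.30 (0.18 for the means as labelled), and their sum ran from 938749 to 1273731 in mutant and 842171 to 1314588 in control channels. The 9 endothelial markers had a median of 0.22 (0.49 on array 3), which was -0.04 as labelled. The 9 red blood cell markers had a median of -0.30 and the 6 epicardial markers one of -0.15, against -0.01 and -0.06 as labelled. All 9 and all 6 of these had a deposited mean below 0, beside 46.5% of all genes. Deposited means above and below 0 numbered 6 and 3 for endothelial, 7 and 9 for heart muscle and 2 and 1 for somite markers. The neural genes kept had medians of 0.158, 0.121, 0.164 and 0.037 on the 4 arrays. How far tissue composition bears on single neural genes was not tested.

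**Figure D4:**
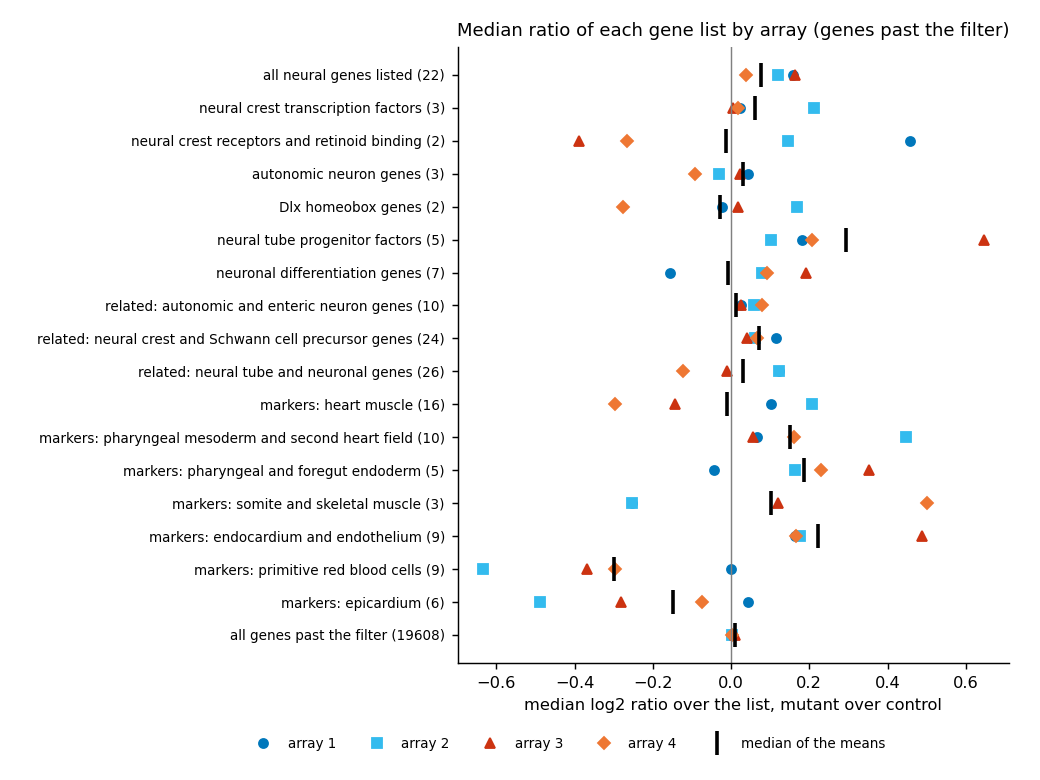
Median deposited log2 ratio of mutant over control in each gene list on each array, with a bar for the median of the genes' means and the number of genes kept in brackets. The 22 listed genes lie between 0.037 and 0.164, the red blood cell markers reach -0.63 on array 2, and somite and heart muscle markers change sign between arrays 1 and 2 and arrays 3 and 4.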

How the data were processed

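RNA from pools of 3 hearts was read on 4 two-colour Agilent arrays, and precision is limited by that number. The authors deposited a table of log2 ratios of mutant over wild type, by a normalization that the sources used here do not give, and scanner files. Per the file headers, these hold Cy3 and Cy5 mean, background and processed intensity and a log10 ratio of Cy5 over Cy3 from Feature Extraction 11.5.1.1, whereas the submitters' processing notes name version 8.5.1.1. The deposited log2 ratios were joined to 39429 probes by probe name, 0 sample columns being unmapped. Outlier spots (230 to 327 per array) were left out of the scanner intensities and flags, but not of the deposited ratios. Saturated spots numbered 0, and repeated spots were averaged in both. A repeated probe counted as well above background where most of its spots did. Per channel, the share of probes well above background was 66.6% to 71.2%.

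In R 4.3.3 with limma 3.58.1, log2 ratios of 1 probe per gene were tested against 0 with lmFit and eBayes over all genes kept, and adjusted by Benjamini-Hochberg, the threshold being 0.05. Each array pairs 1 mutant with 1 control pool, so the ratio itself is the paired value and the array the block. An exact sign test of 4 pairs cannot go below a two-sided p of 0.125. The fit was tested on simulated data with independent noise on each array and no dye effect. That simulation therefore does not cover the correlations between these arrays. Alternatives were normexp (offset 50) and loess on scanner intensities, median centring, other filters, all probes of a gene, a dye term, array weights, leaving out each array, both channels unpaired, and all arrays as labelled. Dim probes have deposited ratios nearer 0 than ratios of their processed signals (-0.348 against -1.24 for Dlx2 on array 1). All listed genes kept are given, with up to 4 genes of smallest p and 1 sign from each related list and up to 3 of smallest p from the lists of second heart field and endoderm markers, and Tcf21. Some genes that this rule picked are not given. The genes and lists were chosen with earlier results of these data known.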

Additional observations from a re-analysis of the deposited data

Results flagged for a closer look

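In 2 of the 22 listed genes a single array stood far from the other 3, by the gap to its neighbour over the whole range of the 4 arrays. Nkx2-2 had a log2 ratio of 1.28 on array 3, a gap of 0.874 of the range. Nes had 0.646 on the same array, a gap of 0.864 of the range. Chance gives such a reading in about 1 of 20 groups. Array 3 also had the widest spread of ratios over all genes.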

How the results depend on the processing

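As labelled, 347 genes and 1 listed gene were called, and medians became 0.139 for the autonomic genes and -0.133 for the progenitor factors of the list, -0.032 for related autonomic and 0.0074 for related crest genes. With array weights 4 genes were called and 4 listed genes had a mean below 0, and with arrays 1 and 2 only, chosen after seeing the data, 34 were called and 4 means were below 0. With arrays 3 and 4 only, also chosen afterwards, the median of the autonomic genes was -0.034. Leaving out 1 array at a time gave 0 to 2 called genes, the 2 without array 1, and 0.004 to 0.048 for the related autonomic median. Loess moved the median of the listed genes to 0.0014. Normexp with median centring gave 0.130 for the autonomic, 0.089 for the related autonomic and 0.126 for the related crest median, beside 0.066 over all genes. Without a filter 23 listed means were above 0, and with both channels above background the Dlx median, then Dlx5 alone, was 0.23. The unpaired fit, with no replicate block, used loess values, so its median of the listed genes was that of the loess ratios, 0.0014. It called 0 genes, with an unadjusted p under 0.05 for 338 higher and 317 lower genes against 760 and 805 in the paired fit of loess ratios (limma). The cause of these differences was not tested. Signal over background limits Dlx2, Dcx and the bHLH genes. The bHLH list had no gene kept and gives no median.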
